A study of Mus musculus with 6 samples.

Results

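The transforming growth factor beta (TGF-β) ligands, receptors and SMAD proteins were examined through 10 genes picked by symbol, and all 10 had an entry among the 10520 genes of the count table. They were the ligand genes Tgfb1, Tgfb2 and Tgfb3, the latency gene Ltbp1, the receptor genes Tgfbr1 and Tgfbr2, and Smad2, Smad3, Smad4 and Smad7. Of these, 8 had enough counts to be tested, and Tgfb2 and Ltbp1 did not. None of the 8 differed between the groups past the threshold, which 13.7% of all tested genes passed, so few of 8 genes would pass at that share. Of 26 tested genes listed as induced by TGF-β, 13 passed, 9 of them upward and 4 downward. Among the 9 were Id1, Id2 and Id3, which are classical targets of BMP. Whether TGF-β raises or lowers each listed gene in these cells, the Id genes among them, was not tested. This list of induced genes, like every other list used here, was drawn up with earlier results of these data known, so its share is a description.

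RNA came from E0771 cells, a mouse breast adenocarcinoma line of C57BL/6 origin, grown in DMEM with 10% FBS. Both groups had been transduced with lentivirus, selected in puromycin at 3 µg/ml and expanded. The 3 shControl libraries carried the empty pLKO.5-puro vector, which holds no shRNA, and the 3 shLmna libraries carried an shRNA to lamin A/C, the intermediate filament proteins that line the inner nuclear membrane. The series' design text gives 1 shRNA construct for these libraries, and their titles read shRNA4. No second construct was analysed here, so an effect of the construct itself and an effect of lamin A/C loss cannot be told apart. The labels do not say that the 3 libraries of a group came from separate cultures or transductions, so the p-values measure the spread between these libraries, which may be technical. The titles also carry a plate name and running numbers, 13 to 15 for shControl and 16 to 18 for shLmna. They do not state whether these numbers are plate positions, and an effect of this order and one of the group cannot be told apart.

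Libraries were prepared by MARS-seq, a method that sequences the 3′ ends of polyadenylated RNA and counts every captured molecule once through a unique molecular identifier (UMI). The libraries held between 1846208 and 3242051 UMIs. Levels are given as UMIs per 1000000 UMIs of the library (CPM) after TMM scaling, and fold changes are log2 ratios of shLmna over shControl, so a positive value is higher in shLmna. Lmna itself was at 873 ± 62.8 CPM in shControl and 381 ± 6.34 in shLmna (SD, n = 3 each), and its log2 fold change was -1.20 with a standard error (SE) of 0.13 and an adjusted p of 3.5e-05 by the quasi-likelihood test of edgeR, adjusted by the Benjamini-Hochberg method over all tested genes. The targeted transcript was thus lower in all 3 libraries labelled as knockdown. Because these are bulk libraries, fewer cells that make a transcript and less of it in each cell cannot be told apart.

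TGF-β is secreted in a latent form, held by its own propeptide and by latent TGF-β binding proteins in the matrix, and is released by integrins, proteases or thrombospondin. Freed ligand binds the type II receptor, which phosphorylates the type I receptor, and this in turn phosphorylates SMAD2 and SMAD3. These join SMAD4, enter the nucleus and bind short DNA elements with the core CAGAC, and among their targets is Smad7, whose product shuts off the receptor. In carcinoma cells the pathway is known both for restraining growth and for driving matrix production, motility and mesenchymal change.

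The promoters of a ligand and of a receptor gene are printed to show where such an element does and does not stand. Each window runs from 250 bases before to 50 bases after the transcription start and is written 5′ to 3′ on the gene's own strand, from RefSeq on GRCm38.p6, with CAGAC or its reverse complement GTCTG in capitals. The Tgfb1 window is chr7:25686752-25687051 on the forward strand and holds no match. The Tgfbr2 window is chr9:116175314-116175613 on the reverse strand and holds 1 match, which starts 160 bases before the start of transcription.
Tgfb1: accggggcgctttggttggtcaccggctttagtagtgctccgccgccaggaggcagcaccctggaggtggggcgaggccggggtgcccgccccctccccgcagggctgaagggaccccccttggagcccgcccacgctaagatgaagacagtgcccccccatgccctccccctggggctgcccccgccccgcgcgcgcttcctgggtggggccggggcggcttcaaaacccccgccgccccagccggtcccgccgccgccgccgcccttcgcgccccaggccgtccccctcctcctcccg
Tgfbr2: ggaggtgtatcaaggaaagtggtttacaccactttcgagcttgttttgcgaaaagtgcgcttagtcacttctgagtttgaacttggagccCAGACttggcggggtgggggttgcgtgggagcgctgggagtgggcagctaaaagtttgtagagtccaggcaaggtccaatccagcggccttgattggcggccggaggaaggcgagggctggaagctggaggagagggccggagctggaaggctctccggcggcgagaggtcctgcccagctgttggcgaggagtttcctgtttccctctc
Of the 10 genes, 6 had a window in the table used, and 3 of these 6 held a match on either strand. Only 1 window a gene was searched, that of the 5′-most start, and Tgfbr1 and Ltbp1 have 2 windows each. The share among all 32851 promoter windows was 49.6%, and it was 49.7% among 27025 genes with 1 window each. Tgfb2 held 2 matches, Tgfbr2 and Ltbp1 held 1 each, and Tgfb1, Tgfbr1 and Smad3 held none. A match describes the letters in the window and is no evidence of binding.

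Among the ligands, Tgfb1, the most widely expressed of the family, was by far the highest. Its level was 62.0, 61.3 and 65.3 CPM in shControl replicates 1 to 3 and 58.8, 40.0 and 65.9 CPM in the shLmna replicates. The groups overlapped, since only shLmna replicate 2 lay well under the control range. The log2 fold change was -0.20 (SE 0.19, 95% interval -0.60 to 0.20, adjusted p = 0.522 by edgeR). Tgfb1 (ENSMUSG00000002603) spans 25687002 to 25705077 of chromosome 7 in the GRCm38 (mm10) assembly, which applies to all positions given, and is read from the forward strand.

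Tgfb3, on the reverse strand of chromosome 12 from 86056745 to 86079041, encodes the ligand isoform best known from palate and mammary development. The shControl libraries held 17, 23 and 6 of its UMIs and the shLmna libraries 18, 10 and 14, or 5.68 ± 2.18 and 5.95 ± 2.01 CPM. The lowest libraries were shControl replicate 3 and shLmna replicate 2, and the ranges coincided almost fully. Its log2 fold change of -0.019 (SE 0.39, 95% interval -0.86 to 0.82, adjusted p = 0.983 by edgeR) thus came with a wide interval, and a change within it was not detectable at this depth. The counted 3′ end of Tgfb3 overlaps an exon of Ttll5 on the other strand, and the methods do not state whether counting used the strand, so reads of the 2 genes may be mixed.

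Tgfb2, the isoform on the reverse strand of chromosome 1 from 186622792 to 186705989, was near the limit of detection, with 4, 6 and 2 UMIs in shControl and 4, 2 and 5 in shLmna. Ltbp1, which tethers the latent complex to matrix fibres and lies on the forward strand of chromosome 17 from 75005568 to 75392512, had 4, 6 and 0 UMIs in shControl and 5, 1 and 0 in shLmna. Neither passed the filter on low counts, and 3 UMIs in a library correspond to between 0.938 and 1.60 CPM. Without that filter edgeR gave Tgfb2 a log2 fold change of -0.016 (95% interval -1.50 to 1.47) and Ltbp1 one of -0.62 (95% interval -2.89 to 1.59), and changes within these intervals were not detectable.

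**Figure D1:**
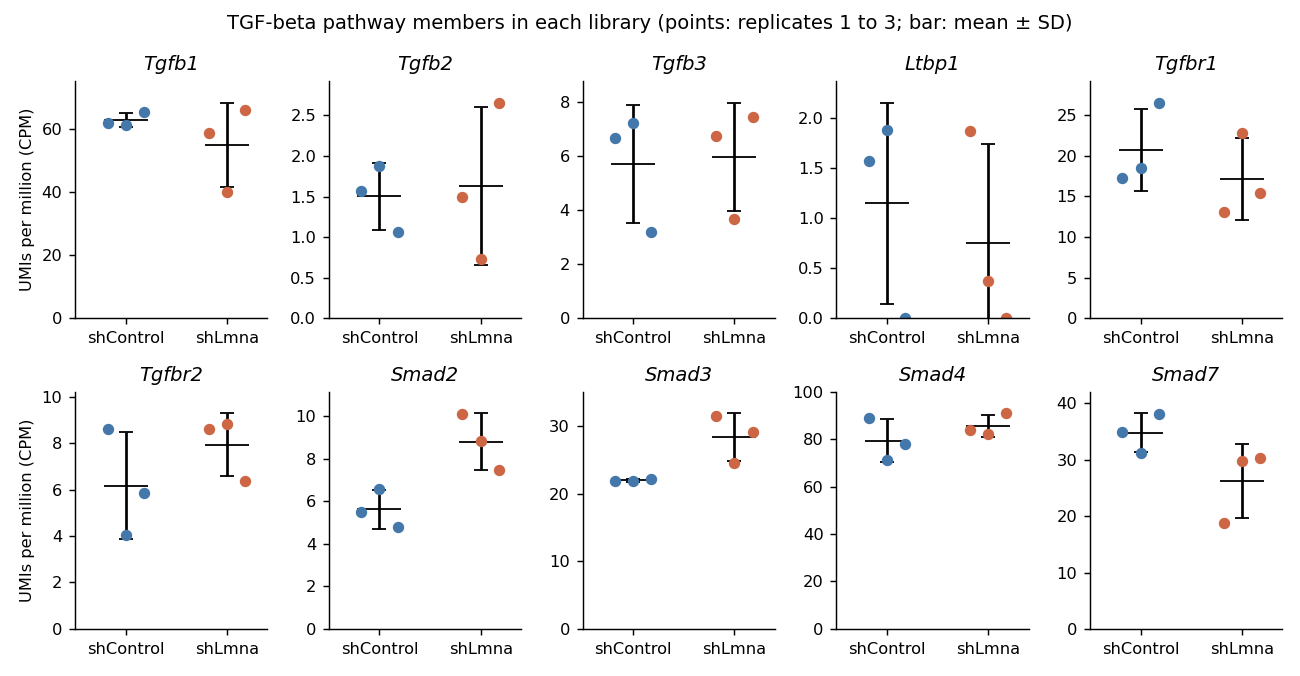
Level of each of the 10 genes in CPM (vertical axis, linear, from 0, its own scale in each panel) in the 3 shControl and 3 shLmna libraries. Points are libraries, the long horizontal line is the group mean and the error bar is 1 SD, cut at 0 for Ltbp1. The groups are apart for Smad2, Smad3 and Smad7, as they are for 32.5% of all tested genes, and overlap for the other 7 genes.

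The receptor genes pointed in opposite directions without passing the test. Tgfbr1 encodes the type I receptor kinase, also called ALK5, and lies on the forward strand of chromosome 4 from 47353222 to 47414931. It stood at 17.3, 18.4 and 26.5 CPM in shControl and at 13.1, 22.8 and 15.4 CPM in shLmna. The highest library was shControl replicate 3 and the lowest was shLmna replicate 1, with the other 4 interleaved. Its log2 fold change was -0.25 (SE 0.26, 95% interval -0.81 to 0.31, adjusted p = 0.583 by edgeR). The counted end of Tgfbr1 has 35.1% GC, the lowest of the 10 genes, and GC content moved with fold change over all genes, with a median of 0.28 in the bin at 34.7% GC against 0.0033 over all tested genes. With the fold changes corrected for GC content in edgeR, Tgfbr1 was lower in shLmna, with a log2 fold change of -0.69 and an adjusted p of 0.0426, which became 0.0653 once the replicate number was also entered. No other setting that was run called any of the 8 genes.

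Tgfbr2 encodes the type II receptor that binds ligand first, on the reverse strand of chromosome 9 from 116084293 to 116175360. Its counts were 22, 13 and 11 UMIs in shControl and 23, 24 and 12 in shLmna, or 6.18 ± 2.30 and 7.94 ± 1.35 CPM. Replicate 1 was at the same level in both groups, 8.63 and 8.62 CPM, so the groups overlapped. The log2 fold change was 0.40 (SE 0.35, 95% interval -0.34 to 1.15, adjusted p = 0.493 by edgeR). Within each library the ratio of Tgfbr2 to Tgfbr1 UMIs was 0.50, 0.220 and 0.22 in shControl and 0.657, 0.387 and 0.414 in shLmna. The ratios overlapped, and a two-sided exact permutation test gave p = 0.3, where 0.1 is the smallest p that 3 against 3 allows.

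The SMADs that carry the signal had positive estimates, that of Smad4 only without the GC correction, and none passed the test. Smad3, which binds DNA directly, lies on the reverse strand of chromosome 9 from 63646767 to 63757994. Its level was 22.0, 21.9 and 22.3 CPM in shControl and 31.5, 24.6 and 29.2 CPM in shLmna. All 3 knockdown libraries were above all 3 controls, whose SD was 0.210 CPM. The controls held 56, 70 and 42 UMIs, and counts of that size vary by more than this SD from sampling alone. The log2 fold change was 0.37 (SE 0.20, 95% interval -0.06 to 0.79, adjusted p = 0.250 by edgeR).

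Smad2, the other receptor-activated SMAD, lies on the forward strand of chromosome 18 from 76241580 to 76310963 and had the largest estimate of the 8 tested genes. Its counts were 14, 21 and 9 UMIs in shControl and 27, 24 and 14 in shLmna. In CPM the controls were at 5.49, 6.57 and 4.77 and the knockdown libraries at 10.1, 8.81 and 7.44, so the groups did not overlap. Its log2 fold change was 0.63 (SE 0.31, 95% interval -0.03 to 1.30) with an unadjusted p of 0.0597 and an adjusted p of 0.198 by edgeR.

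Smad4, the partner that SMAD2 and SMAD3 share, also on chromosome 18, from 73639009 to 73703780 on the reverse strand, was the most abundant of the 10. It was at 89.0, 71.3 and 78.0 CPM in shControl and at 83.9, 82.2 and 90.9 CPM in shLmna, and the groups overlapped. The log2 fold change was 0.11 (SE 0.15, 95% interval -0.22 to 0.43, adjusted p = 0.688 by edgeR), and it turned to -0.047 under the GC correction. Summed, Smad2, Smad3 and Smad4 gave 107 ± 8.55 CPM in shControl and 123 ± 6.40 in shLmna, with overlapping groups. The ratio of Smad2 to Smad4 UMIs was 0.0617, 0.0921 and 0.0612 in shControl and 0.121, 0.107 and 0.0819 in shLmna, and the two-sided exact permutation test gave p = 0.2.

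Smad7, an inhibitory SMAD that brings ubiquitin ligases to the type I receptor, was the only one of the 8 whose shLmna libraries all lay under all controls. Located on the forward strand of chromosome 18 from 75367529 to 75395935, it was at 34.9, 31.3 and 38.2 CPM in shControl and at 18.7, 29.7 and 30.3 CPM in shLmna. The lowest control, at 31.3 CPM, and the highest knockdown library, at 30.3, were close, and shLmna replicate 1 lay far under the rest. The log2 fold change was -0.41 (SE 0.22, 95% interval -0.87 to 0.06, unadjusted p = 0.0814, adjusted p = 0.241 by edgeR). Smad6, also an inhibitory SMAD but outside the 10 genes, is named after its values were seen. It had a positive estimate of 1.43 (95% interval 0.35 to 2.55, adjusted p = 0.0762 by edgeR), with overlapping groups.

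The ratio of Smad7 to Smad3 UMIs, a comparison chosen after the values were seen, set the inhibitor against a SMAD that it restrains. The ratio was 1.59, 1.43 and 1.71 in shControl and 0.595, 1.21 and 1.04 in shLmna. The log2 difference was -0.79. Since Smad7 was lower and Smad3 higher in every shLmna library, the choice of these genes fixed the separation of the groups, and no test is given.

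By edgeR's test at an adjusted p under 0.05, 0 of 8 passed, against 13.7% of the 8969 genes tested, 7.96% higher and 5.78% lower in shLmna. None of the 8 reached an unadjusted p under 0.05 either, against 28.4% of all, and DESeq2 and limma-voom also called 0. By the study's criteria, an adjusted p under 0.05 with a mean normalised count above 5 and an absolute log2 fold change above 1, 0 of 8 were called against 5.71%. The groups did not overlap for 3 of 8, Smad2, Smad3 and Smad7, against 32.5% of all tested genes. The estimates were positive for 4 and negative for 4, with a median of 0.045, and the summed level of all 10 genes was between 226 and 249 CPM in shControl and between 222 and 256 in shLmna.

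**Figure D2:**
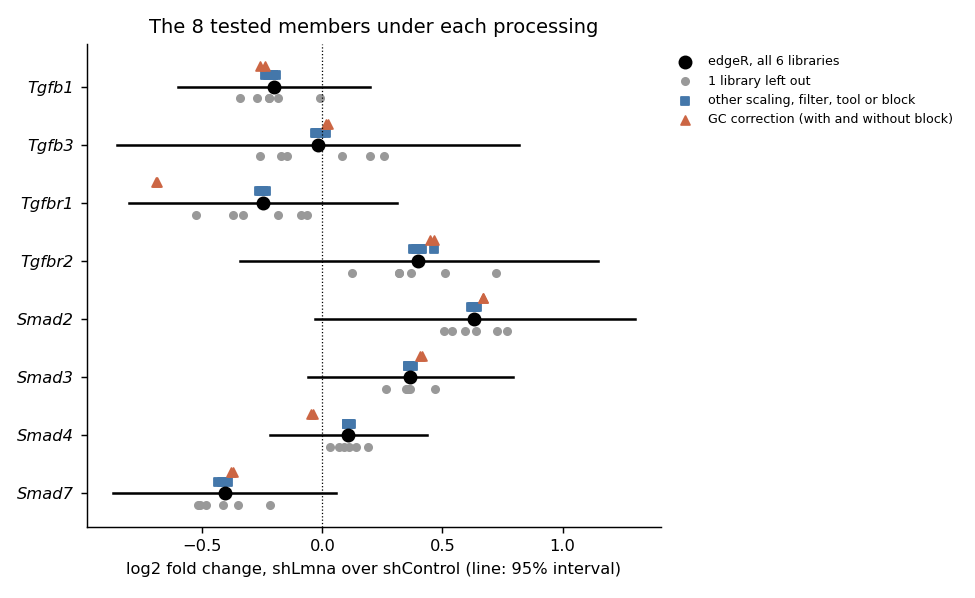
Log2 fold change of shLmna over shControl (horizontal axis) for the 8 tested genes, with the edgeR estimate of all 6 libraries as a black point and its 95% interval as a line, and with smaller marks for the estimates without 1 library (grey), with another scaling, filter, tool or block (blue squares) and with the GC correction (orange triangles). Each interval crosses 0, from Smad2 at 0.63 to Smad7 at -0.41, and the GC correction moves Tgfbr1 most, to -0.69.

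Since the counted window has the same length for every gene, levels may also be set side by side within a group, although capture can differ between 3′ ends. In shControl the order in CPM was Smad4 at 79.4 ± 8.96, Tgfb1 at 62.8 ± 2.12, Smad7 at 34.8 ± 3.47, Smad3 at 22.0 ± 0.210 and Tgfbr1 at 20.7 ± 5.04. Then came Tgfbr2, Tgfb3 and Smad2 at 6.18, 5.68 and 5.61 CPM, and lowest Tgfb2 at 1.50 ± 0.412 and Ltbp1 at 1.15 ± 1.01. The libraries of Smad3 and Tgfbr1 overlapped, as did those of Tgfbr2, Tgfb3 and Smad2, and those of Tgfb2 and Ltbp1. In shLmna, Smad3 at 28.4 ± 3.51 CPM and Smad7 at 26.3 ± 6.52 overlapped, as did Smad7 and Tgfbr1, and Smad2 at 8.79 ± 1.34 stood beside Tgfbr2. The type II receptor was thus counted less often than the type I receptor in all 6 libraries, and Smad2 less often than Smad3.

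The 3 genes whose log2 CPM over the 6 libraries was most like that of Smad2, the member with the smallest p, were H2-DMb1 (Pearson's r = 0.998), Gpsm3 (r = 0.993) and Mis18a (r = 0.980). They were the closest of 5842 genes with a mean count of at least 50, and all points come from the same libraries, which differ in depth and group. The coefficients are a description without a test.

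Of 18 listed genes that store or activate latent ligand, 13 had an entry and 11 were tested, of which 3 were higher, 1 was lower and 7 did not pass. This is 36.4% past the test against 13.7% of all tested genes, with a median log2 fold change of 0.100. The list was drawn up with earlier results of these data known, so the share is a description. Ltbp4, a relative of Ltbp1 that anchors latent TGF-β1, was at 127, 86.9 and 67.9 CPM in shControl and at 246, 169 and 188 CPM in shLmna. These groups were apart, and it rose by 1.09 (SE 0.21, adjusted p = 0.00336 by edgeR). Mmp2, a gelatinase able to release latent ligand, rose from 12.1 ± 3.15 to 28.4 ± 3.08 CPM, a log2 change of 1.20 with an adjusted p of 0.00396. Thbs1, encoding thrombospondin 1, an activator of latent TGF-β, had 7, 9 and 4 UMIs in shControl and 16, 24 and 17 in shLmna. Its log2 fold change was 1.58 (adjusted p = 0.0116 by edgeR), and the adjusted p was 0.0664 without shControl replicate 2, 0.0529 without shLmna replicate 2 and 0.0628 without shLmna replicate 3. With 35.2% GC at its counted end, Thbs1 had a log2 fold change of 1.12 under the GC correction (adjusted p = 0.0467) and of 1.13 with the replicate block added (adjusted p = 0.0756). Itgb1, the integrin beta subunit shared by many matrix receptors, was lower by a log2 change of -0.47 with an adjusted p of 0.0498, which was 0.0548 without the filter on low counts and between 0.117 and 0.204 without shControl replicate 1 or 2 or shLmna replicate 2 or 3.

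Among co-receptors and receptor regulators, 14 of 17 had an entry, 13 were tested, 2 were higher and none lower, a share of 15.4% that is close to the 13.7% of all tested genes, with a median of 0.098. Tgfbr3, or betaglycan, which presents ligand to the type II receptor, was at 25.5, 27.5 and 18.6 CPM in shControl and at 47.2, 44.1 and 46.3 CPM in shLmna. All 3 knockdown libraries were above all controls, and the log2 change was 0.92 (SE 0.19, adjusted p = 0.00599 by edgeR). Traf6, a ubiquitin ligase that binds the type I receptor, had a log2 change of 1.20 (adjusted p = 0.0211 by edgeR). The adjusted p was 0.0874 without shControl replicate 1, 0.130 without shControl replicate 2, 0.0788 without shLmna replicate 1 and 0.0901 without shLmna replicate 3. Dab2, an adaptor that links receptors to SMADs and is named here after its values were seen, did not pass the filter. It had 0, 1 and 1 UMIs in shControl and 9, 14 and 5 in shLmna, which is at least 3.01-fold higher against a floor of 3 UMIs per library.

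Of 27 listed SMAD partners and regulators, 22 had an entry, 19 were tested and only Tgif1 passed, a share of 5.26% against 13.7% of all tested genes, with a median of 0.084. Tgif1, a homeobox co-repressor of SMAD complexes, was at 95.7, 66.6 and 71.1 CPM in shControl and at 54.3, 43.0 and 27.7 CPM in shLmna. The groups were apart, with a log2 change of -0.88 (adjusted p = 0.0163 by edgeR, 0.0719 without shControl replicate 1 and 0.0901 without shLmna replicate 3). The most abundant of the list, Stub1 and Snw1, encode a ubiquitin ligase and a transcriptional co-regulator and had log2 fold changes of -0.03 and -0.25 that did not pass. Their counted ends overlap other genes, Jmjd8 for Stub1 and Slirp for Snw1.

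In the neighbouring BMP and activin branch, 11 of 29 listed genes had an entry and all 11 were tested, of which 1 was higher and 3 lower, or 36.4% against 13.7% of all tested genes, with a median of 0.030. This list too was drawn up with earlier results of these data known, so its share is a description. Inhba, the activin A subunit, was at 8.63, 15.3 and 17.5 CPM in shControl and at 4.50, 6.61 and 5.32 CPM in shLmna, and it changed by -1.31 on the log2 scale (adjusted p = 0.0174 by edgeR). Fstl3, an extracellular inhibitor of activin that overlaps Prss57 at its 3′ end, fell from 133 ± 11.2 to 81.7 ± 7.73 CPM, by 0.71 on the log2 scale (adjusted p = 0.00599). Acvr1, a type I receptor of the BMP branch, changed by -0.82 (adjusted p = 0.0426) and Fstl1, a secreted follistatin-like protein, by 0.66 (adjusted p = 0.0166). Leaving out single libraries took these calls past 0.05 for Inhba (to 0.103 without shControl replicate 2, 0.0729 without shLmna replicate 1 and 0.0694 without shLmna replicate 3), for Fstl3 (0.0528 without shControl replicate 2) and for Fstl1 (0.112 without shControl replicate 2, 0.107 without shLmna replicate 1 and 0.0612 without shLmna replicate 3). Acvr1 missed the threshold whichever single library was left out, with an adjusted p of up to 0.108. It also missed it with DESeq2 (0.116), limma-voom (0.05004) and the replicate block (0.0514).

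The genes listed as induced by TGF-β split in both directions. Of 34 listed, 30 had an entry and 26 were tested, with 9 higher, 4 lower and 13 not past the test, so that 50% passed against 13.7% of all tested genes, and 16 of 26 had groups that did not overlap, against 32.5% of all. The median log2 fold change was 0.16, against 0.0033 over all tested genes, and the list held changes in both directions. Since the list was drawn up with earlier results of these data known, these shares are descriptions.

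The lower genes were a cytokine, a cell cycle inhibitor and matricellular genes. Il11, a cytokine induced in carcinoma cells, had 29, 49 and 27 UMIs in shControl and 6, 12 and 10 in shLmna, or 13.7 ± 2.05 and 3.99 ± 1.58 CPM. Every knockdown library was under every control, and Il11 fell by 1.81 on the log2 scale (SE 0.34, adjusted p = 0.00301 by edgeR). Cdkn1a, the cell cycle inhibitor p21 and also a target of p53, was at 116, 99.1 and 92.8 CPM in shControl and at 37.1, 41.1 and 35.1 CPM in shLmna, a log2 change of -1.44 with an adjusted p of 4.6e-05. Ctgf and Cyr61, matricellular genes that are also leading targets of YAP, changed by -1.37 (adjusted p = 0.0107) and -0.95 (adjusted p = 0.00139). Without shControl replicate 2 the adjusted p of Ctgf was 0.0670, and without shLmna replicate 1 it was 0.0528.

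The 9 higher genes included matrix and Id genes. Tgfbi, a secreted matrix protein named for its induction by TGF-β, had 25, 48 and 35 UMIs in shControl and 109, 145 and 92 in shLmna, or 14.5 ± 4.41 and 47.7 ± 6.29 CPM. It rose by 1.74 on the log2 scale (SE 0.23, adjusted p = 0.000219 by edgeR), the opposite direction to Il11. Acta2, smooth muscle actin, had 7, 13 and 3 UMIs in shControl and 26, 41 and 31 in shLmna, a log2 change of 2.18 (SE 0.38, adjusted p = 0.00147). Col3a1, a fibrillar collagen, was at 0 UMIs in all 3 shControl libraries and at 13, 12 and 12 in shLmna, at least 4.22-fold higher against a floor of 3 UMIs per library (adjusted p = 0.000511). Sphk1, a lipid kinase, changed by 0.94 (adjusted p = 0.00323), and Id2, an inhibitor of bHLH factors, by 0.93 (adjusted p = 0.00536, and 0.0562 without shControl replicate 2). The other 4, named outside the rule for named genes, were Id1, Id3, Col4a1 and Col5a1. The Id genes are classical targets of BMP, and the direction in which TGF-β moves them in these cells was not tested.

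**Figure D3:**
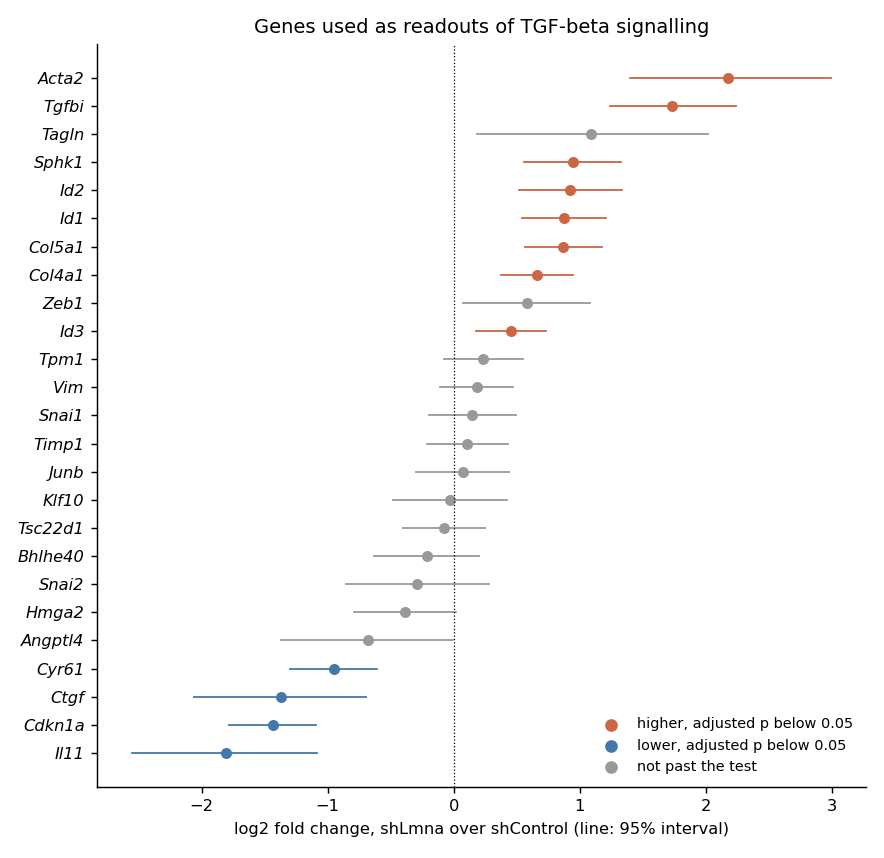
Log2 fold change of shLmna over shControl (horizontal axis) of the tested TGF-β-induced genes, with the edgeR estimate as a point and its 95% interval as a bar, and colour marking genes past an adjusted p of 0.05. Col3a1, at 0 UMIs in shControl, is not drawn; Acta2 at 2.18 and Tgfbi at 1.74 stand at the higher end and Il11 at -1.81 at the lower.

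The promoters of Tgfbi and Il11 are printed because these genes moved in opposite directions while both windows hold 2 matches to the SMAD element, in capitals as above. The windows are again from RefSeq on GRCm38.p6, chr13:56609336-56609635 on the forward strand for Tgfbi and chr7:4782808-4783107 on the reverse strand for Il11. Il11 has 2 windows, and that of the 5′-most start is printed. The matches start 239 and 85 bases before the start of transcription in Tgfbi and 138 and 115 bases before it in Il11.
Tgfbi: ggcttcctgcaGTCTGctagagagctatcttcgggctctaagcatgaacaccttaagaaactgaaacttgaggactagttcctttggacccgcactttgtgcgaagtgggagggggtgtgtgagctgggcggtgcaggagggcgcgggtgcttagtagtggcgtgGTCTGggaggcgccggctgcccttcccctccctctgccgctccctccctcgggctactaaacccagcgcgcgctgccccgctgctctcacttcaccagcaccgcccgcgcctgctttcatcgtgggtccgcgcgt
Il11: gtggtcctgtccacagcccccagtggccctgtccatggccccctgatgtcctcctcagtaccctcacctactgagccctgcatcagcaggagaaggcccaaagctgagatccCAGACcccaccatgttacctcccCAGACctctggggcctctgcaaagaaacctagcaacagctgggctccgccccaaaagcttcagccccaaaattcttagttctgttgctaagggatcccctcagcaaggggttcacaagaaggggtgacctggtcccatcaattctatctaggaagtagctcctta
Of the induced genes with a window in the table, 6 of 8 that were higher, 2 of 2 that were lower and 1 of 7 that did not pass held a match. Over all genes with 1 window each the share was 49.7%. These small counts were not tested, and the element was present in genes of both directions.

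GC content moved with the calls over all genes. The median GC content of the counted 3′ end was 44.3% for genes higher in shLmna, 49.6% for genes that were lower and 47.1% for those that did not pass. Correcting for it changed the calls over all genes from 714 higher and 518 lower to 729 higher and 776 lower. The tested members had a median of 46.25% and spread from Tgfbr1 at 35.1% to Tgfb1 at 57.8%. The part of GC content in the other results was not tested beyond the correction.

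**Figure D4:**
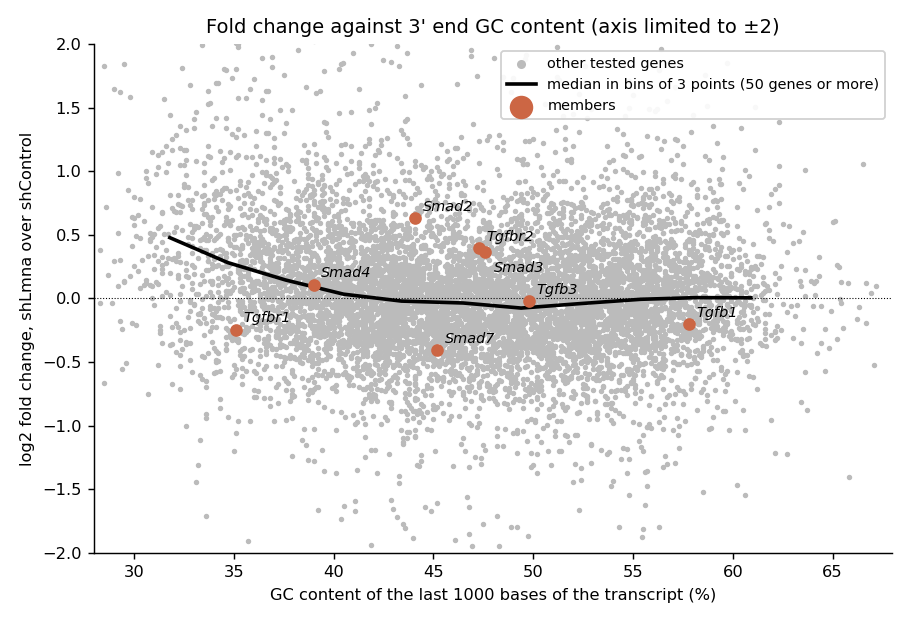
Log2 fold change of shLmna over shControl (vertical axis, limited to ±2) against the GC content of the last 1000 bases of each transcript in percent (horizontal axis) for the tested genes, with the 8 tested members as large labelled points. The line joins medians of bins 3 points wide with at least 50 genes, from 0.48 at 31.8% GC; Tgfbr1 at 35.1% lies under the line and Smad2 at 44.1% above it, and 153 of 8934 genes fall outside the axes.

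Epithelial identity could be checked only in part, since 5 of 14 mammary epithelial markers had an entry and Cdh1 had none. Krt8, a keratin of simple epithelia, was at 276 ± 27.4 CPM in shControl and 291 ± 15.4 in shLmna, and Erbb2, a receptor kinase whose 3′ end overlaps Mien1, also did not pass, with a log2 fold change of 0.37. Epcam, an epithelial adhesion molecule named after its values were seen, was at 13.3, 14.4 and 13.3 CPM in shControl and at 5.25, 11.7 and 4.25 CPM in shLmna, lower in every knockdown library (log2 fold change -0.90, unadjusted p = 0.0173, adjusted p = 0.0909 by edgeR). None of 4 tested epithelial markers passed by edgeR, DESeq2 or limma-voom, where 13.7% of all tested genes passed by edgeR. Epcam alone among these markers reached an unadjusted p under 0.05, and 1 marker was called lower without shLmna replicate 2. Their median was -0.23 and the list summed to between 285 and 343 CPM in shControl and between 306 and 344 in shLmna. Of 16 markers of fibroblasts, leukocytes and endothelium, 6 had an entry, and Ptprc, Thy1, Dcn, Lum, Cdh5 and Kdr, which define those cells, had none. The 6 summed to between 58.8 and 64.4 CPM in shControl and between 56.5 and 60.1 in shLmna. Of the 5 tested, 60% passed by edgeR, in both directions, against 13.7% of all tested genes. Lyz2, a lysozyme of myeloid cells, was higher (1.28, adjusted p = 0.0110, and 0.0520 without shControl replicate 1), Pdgfrb, a receptor of mesenchymal cells, was higher (0.74, adjusted p = 0.0457, and 0.133 by DESeq2) and Cd14, a myeloid co-receptor, was lower (-1.30, adjusted p = 0.00256). Of 5 genes typical of platelets and leukocytes that store TGF-β, only Itga2b had an entry, at 8.81 ± 0.882 CPM in shControl and 4.26 ± 0.142 in shLmna (log2 change -1.04, adjusted p = 0.0423, and 0.151 by DESeq2). Pdgfrb and Itga2b also missed the threshold whichever single library was left out, and with the replicate block in edgeR (adjusted p = 0.0551 and 0.0562). Itga2b missed it without the filter on low counts too (adjusted p = 0.0503). The part of other cell types in the results above was not tested.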

How the data were processed

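MARS-seq libraries of E0771 cells, 3 shControl and 3 shLmna, were analysed. Per the labels and methods, the authors trimmed reads with Cutadapt, mapped them to mm10 with STAR 2.4.2a and counted UMIs with a modified HTSeq at RefSeq 3′ ends (the final 1000 bases of a gene plus 100 beyond it). The deposited counts are whole numbers, not normalized, and every gene has at least 6 UMIs in some library, so genes under that were not analysed here. The 6 columns of ComBat-corrected log2 values, whose batch is not named, and the authors' DESeq2 comparison (mean, log2 fold change, p-value, adjusted p-value) were not used.

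Counts were analysed in R 4.3.3. edgeR 4.0.16 (filterByExpr with a minimum count of 10, TMM, quasi-likelihood test) was fitted to all 6 libraries and p-values were Benjamini-Hochberg adjusted over all 8969 tested genes. The alternatives were DESeq2 1.42.0, limma-voom (limma 3.58.1), RLE and upper-quartile scaling, no filter, a replicate block, a GC correction (loess, span 0.3, degree 2), both together, and leaving out each library. The code was tested on simulated data. Depth was 1846208 to 3242051 UMIs. With genes pooled, all replicate pairs differed by more than sampling noise (chi-square per degree of freedom 5.11 to 8.28). Intervals from counting error alone would thus be narrower than the spread between replicates for the genes pooled. This need not hold for each gene, and it did not for Smad3 in shControl.

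Positions and GC content came from GENCODE M21 (GRCm38), matched to 10469 genes, 324 through an older symbol. Promoters came from RefSeq. Python 3.11.15, pandas 2.3.3 and matplotlib 3.10.9 were used. The members and all lists (latency and activation, co-receptors and receptor regulators, SMAD partners and regulators, BMP and activin branch, TGF-β-induced genes, mammary epithelial markers, other cell types, platelet and leukocyte sources) were chosen with earlier results of these data known. An item of the TGF-β-induced list is not reported here and was left out of its counts. Named were all members, Lmna, in each list up to 5 genes past the test with the largest change in each direction, in lists with fewer than 2 such genes the 2 with the highest mean, and the 3 genes most like the member with the smallest p.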

Additional observations from a re-analysis of the deposited data

How the results depend on the processing

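Of the tested members, Tgfb1, Tgfbr1, Tgfbr2, Smad2, Smad3 and Smad7 kept their direction in all 15 settings, and only the GC correction called any, which gave 1 lower member (Tgfbr1). Tgfb3, near 0, turned to 0.014 with DESeq2, 0.022 with the GC correction and 0.016 with the GC correction and replicate block, and ranged from -0.26 to 0.26 when single libraries were left out. Smad4 turned to -0.047 with the GC correction and -0.038 with the GC correction and replicate block. Leaving out single libraries moved Stub1 between -0.13 and 0.12 and Krt8 between -0.0070 and 0.12. It also gave 0 to 1 lower genes of latency and activation, 1 to 2 higher co-receptor genes, 0 to 1 lower SMAD partners, 0 to 2 higher and 0 to 2 lower BMP and activin genes, 7 to 9 higher and 3 to 5 lower TGF-β-induced genes, and 353 higher and 187 lower genes in all (without shControl replicate 2) to 882 and 698 (without shControl replicate 3). Without the filter, 0 latency genes were lower and 3 co-receptor genes were higher, Dab2 among them. The GC correction, with or without the replicate block, gave 1 lower co-receptor gene. The causes of these shifts were not tested beyond what each setting changes. Replicate numbers 1 to 3 occur in both groups. The libraries numbered 1 deviated together in part (correlation 0.35, the best match by number). Those numbered 2 and 3 did not (-0.11 and 0.0052), so the numbers were not taken as pairs. With the replicate block 773 genes were higher and 577 lower, and no member was called. Depth limits Tgfb2 and Ltbp1, which had at most 6 UMIs in any library.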
